A study of Nothobranchius furzeri with 8 samples.

Results

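Glutaminyl and phenylalanyl tRNAs, the nuclear-encoded tRNA-Gln-CTG, tRNA-Gln-TTG and tRNA-Phe-GAA, were examined in whole brains of the turquoise killifish Nothobranchius furzeri, a fish with a naturally short life. They were chosen by the difference in charged share between ages, which was among the smallest of all nuclear tRNAs, so their charging by age is a description here and carries no test. They are 3 of the 49 nuclear anticodons and of the 72 anticodons measured in all, and hold 15 of 289 nuclear tRNA genes and 4 of 66 nuclear transcripts or clusters of near-identical transcripts. The tRNA-seq libraries came from 1 brain each of 4 young (5 wph, weeks posthatching) and 4 old (39 wph) killifish, and each age had 2 males and 2 females. The labels also word the older age as 39 to 40 weeks. The labels name no treatment, and the study's methods give the wild-derived strain MZM-0410 for its experiments, while the tRNA genes were named after a reference of another strain, GRZ. The study set out to measure tRNA abundance and charging in young and aged brains. The counts cover tRNAs only, so cell type markers of the brain could not be examined.

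A tRNA carries its amino acid on the adenosine of its 3′-terminal CCA, and a ribosome can use it only in this charged form. Gln-CTG pairs with the codon CAG, Gln-TTG reads CAA, and Phe-GAA reads both phenylalanine codons. Glutaminyl-tRNA synthetase is 1 of the few class I enzymes that activate their amino acid only with the tRNA bound, together with those for glutamate and arginine. Phenylalanyl-tRNA synthetase belongs by fold to class II, although it joins the amino acid to the hydroxyl group used by class I enzymes. Both amino acids protect the last adenosine in the assay: periodate oxidation followed by β-elimination takes this nucleotide from an uncharged tRNA, which is then read with the end CC, while a charged tRNA keeps CCA. Reads with CCA as a percentage of those with CCA or CC give the charged share. Reads could also end in C alone or in none of these.

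The 8 libraries held between 717858 and 3112101 reads, and the 3 tRNAs together took between 8.86 and 10.7% of the nuclear tRNA reads of a brain. The charged shares rested on 21988 to 105911 reads for Gln-CTG, 2967 to 10871 for Gln-TTG and 26561 to 129893 for Phe-GAA. The widest 95% Wilson intervals reached 0.610, 1.58 and 0.595 points to either side. These intervals cover counting error only. PCR copies of a molecule are not independent, so the intervals may be too narrow even for that. The counts of brains of the same age differed beyond sampling noise in 12 of 12 pairs. Old female 1 stood apart by its many reads ending in C or in none of the 3 ends, and the median charged share of old female 2 (64.6%) lay within the young range. A synthetic E. coli tRNA-Lys, mixed to hold 75% CCA ends and added after oxidation, was read as 76.8 to 80.3% charged in the 8 libraries. Its mean was 77.2% in young and 78.8% in old libraries, 1.57 points higher, and 3 of 4 old libraries exceeded every young one.

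In old brains the charged shares of all 3 tRNAs were lower by 2.54 to 4.01 points on average, against 11.3 points for the median of the 47 nuclear anticodons with at least 100 CCA or CC reads in every brain. The charged share of Gln-CTG was 78.0, 69.2, 76.8 and 73.5% in young male 1, young male 2, young female 1 and young female 2. It was 69.4, 73.5, 61.4 and 77.5% in the old brains in the same order. The ages overlapped, and only old female 1 lay below every young brain. The mean of Gln-CTG was 74.4% ± 3.97 (SD, n = 4) in young and 70.5% ± 6.91 (SD, n = 4) in old brains, a difference of −3.91 points. It was −0.878 points without old female 1 and −6.27 points without old female 2.

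Gln-TTG, the other glutamine isoacceptor, was charged to 81.3, 73.9, 81.0 and 76.7% in young brains and to 74.1, 78.8, 67.5 and 82.4% in old brains. Its lowest and its highest value both belonged to old females. The mean was 78.2% ± 3.55 (SD, n = 4) against 75.7% ± 6.45 (SD, n = 4), or −2.54 points, and the difference turned to 0.192 points without old female 1 and was −4.79 points without old female 2. Phe-GAA was charged to 69.8, 57.2, 66.1 and 57.3% in young brains and to 57.7, 60.1, 53.0 and 63.5% in old brains. All old values but that of old female 1 lay inside the young range. The mean of Phe-GAA was 62.6% ± 6.35 (SD, n = 4) against 58.6% ± 4.43 (SD, n = 4), or −4.01 points. Without old female 1 it was −2.15 points and without old female 2 −5.66 points, and the median anticodon differed by −7.76 points without old female 1.

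**Figure D1:**
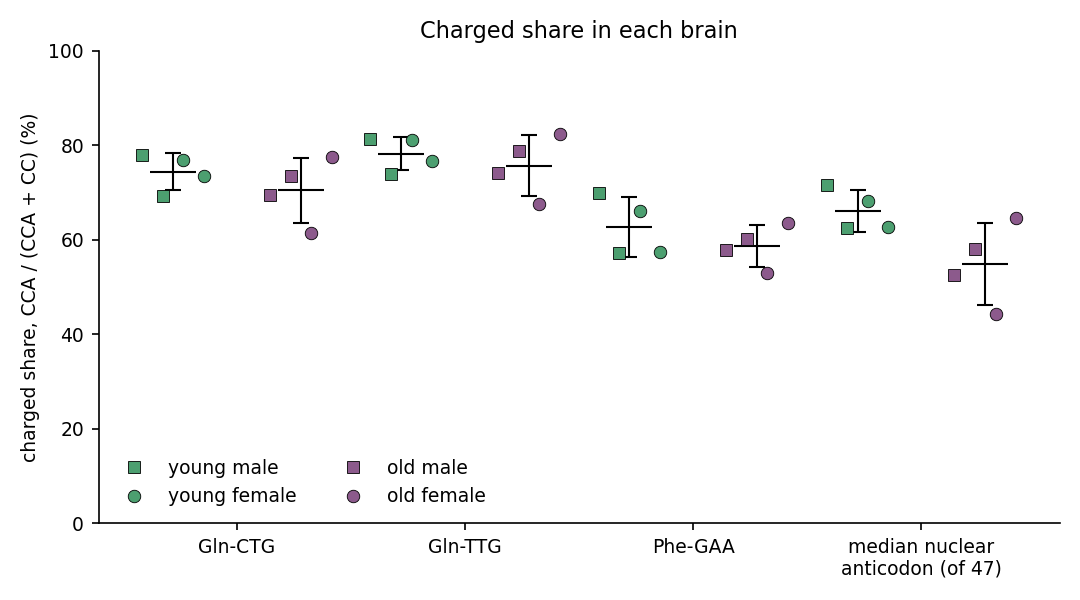
Charged share (%, reads ending in CCA over reads ending in CCA or CC) of Gln-CTG, Gln-TTG, Phe-GAA and the median nuclear anticodon in each of 4 young and 4 old brains, with squares for males, circles for females and bars for the mean ± SD. The ages overlap in each of the 3 tRNAs, whose means differ by 2.54 to 4.01 points, while the median anticodon goes from 66.2 to 54.9%.

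The 47 anticodons were ordered by the difference between ages in the log2 odds of CCA over CC, the scale that compares tRNAs of different charged shares. Gln-TTG had the smallest difference (−0.19), then Phe-GAA (−0.25), Thr-CGT (−0.25), Gln-CTG (−0.27) and Thr-AGT (−0.31). Thr-CGT, which was not selected, thus lies between the members. No gap separates the 3 tRNAs from the threonine tRNAs that border them. On the scale of points, where the 47 anticodons ranged from −24.4 to −2.54, Gln-TTG and Gln-CTG had the 2 smallest differences, and Thr-CGT (−3.99 points) stood ahead of Phe-GAA. With each brain left out in turn, Gln-TTG kept a place from 1 to 5, Phe-GAA from 2 to 4 and Gln-CTG from 2 to 6. For background, 1 of the 47 anticodons (2.13%) had an adjusted p below 0.05 when edgeR tested charging by age, and 38 had one without old female 2. Before adjustment, 18 of the 47 were below 0.05 with all brains. The test pooled the spread over anticodons, although the anticodons of a brain share its shift in charging. These counts are therefore not separate evidence for each anticodon.

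By the log2 odds of CCA over CC, the 3 tRNAs were set against the median nuclear anticodon of the same brain. They stood higher in every old brain than in any young brain, which restates how they were chosen. The log2 odds of Gln-CTG exceeded the median by 0.50, 0.44, 0.63 and 0.73 in the young brains and by 1.03, 1.01, 1.01 and 0.92 in the old brains. Those of Gln-TTG exceeded it by 0.79, 0.77, 1.00 and 0.97 and by 1.37, 1.42, 1.39 and 1.36. On this scale the old brains lay within a narrow band for both glutamine tRNAs (SD 0.05 and 0.03), although their median anticodon ranged from 44.2 to 64.6% charged. Glu-TTC also stayed between −0.60 and −0.45 in the old brains, so a narrow band is not particular to glutamine. Phe-GAA differed from the median by −0.12, −0.31, −0.13 and −0.32 in young brains and by 0.30, 0.12, 0.51 and −0.07 in old brains. The glutamine tRNAs were thus above the median at both ages, while Phe-GAA was below it in 4 of 4 young brains and above it in 3 of 4 old brains. With CCA set against all other ends, 3 of 4 old brains exceeded every young brain in each of the 3 tRNAs. The old values then spanned 0.06 to 0.51 in Gln-CTG (SD 0.21) and 0.16 to 0.91 in Gln-TTG (SD 0.33). Gln-TTG in old female 1 (0.16) lay below every young brain.

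**Figure D2:**
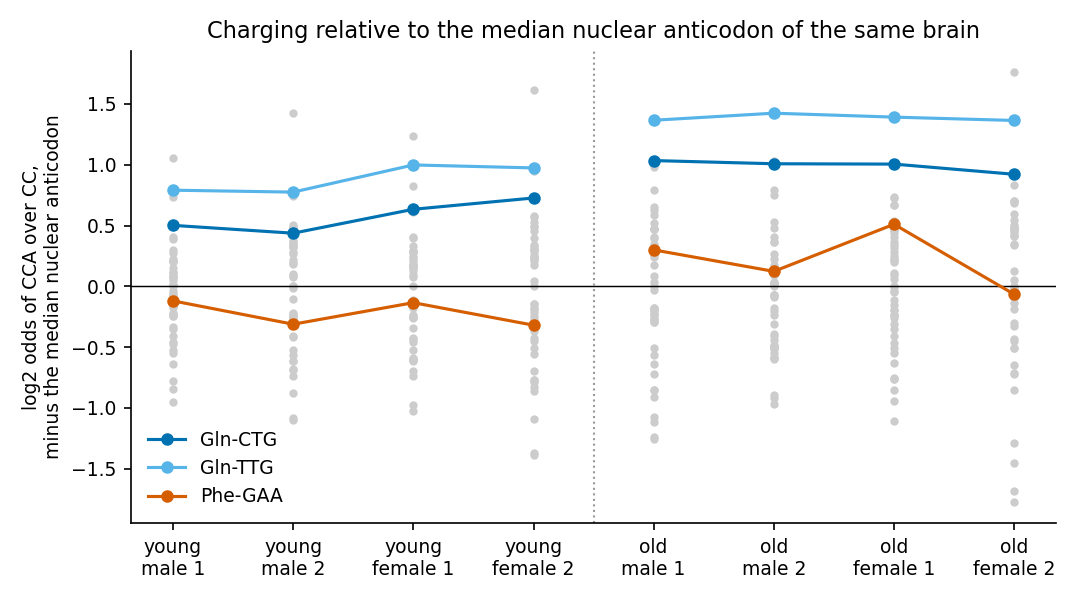
Log2 odds of CCA over CC minus those of the median nuclear anticodon of the same brain (vertical axis) in the 8 brains, in colour for the 3 tRNAs and in grey for the other anticodons. Both glutamine tRNAs lie near 1.0 and 1.4 in old brains, and Phe-GAA passes from between −0.32 and −0.12 to between −0.07 and 0.51.

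By charged share, the levels within a brain kept 1 order. Gln-TTG was charged higher than Gln-CTG in 8 of 8 brains, by 4.54 ± 0.982 points (SD, n = 8), and higher than Phe-GAA in 8 of 8, by 16.4 ± 2.68 points (SD, n = 8). Gln-CTG exceeded Phe-GAA in 8 of 8 brains by 11.8 ± 2.73 points (SD, n = 8). Among the 47 anticodons, Gln-TTG ranked 1 or 2 by charged share in every brain and Gln-CTG between 2 and 7. Phe-GAA ranked 28, 35, 26 and 33 in young brains and 17, 17, 8 and 28 in old brains. With reads of all ends in the denominator, Gln-TTG ranked between 3 and 20 and Gln-CTG between 7 and 23. Phe-GAA then led in old female 1, with 35.4% CCA ends against 34.8% in Gln-TTG and 33.2% in Gln-CTG.

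The glutamine tRNAs ranked first in another class of reads, those with none of the ends CCA, CC and C. The share of such reads in Gln-CTG was 2.91, 5.51, 3.84 and 5.17% in young and 8.63, 7.67, 22.8 and 4.07% in old brains. For Gln-TTG it was 2.92, 5.37, 4.10 and 5.91% in young and 9.0, 9.05, 26.2 and 4.01% in old brains. These were the highest and second highest shares among the 47 anticodons in 8 of 8 brains, young and old. The median anticodon had 1.31% ± 0.146 (SD, n = 4) and 2.34% ± 0.97 (SD, n = 4), so that the glutamine tRNAs held 2.45 to 6.98 times its share. Other anticodons came close behind. The next in order was Pro-TGG in 6 of the 8 brains, with 5.07, 3.51 and 4.61% in young male 2 and both young females, 6.53% in old male 2 and 17.5 and 3.38% in the old females. It was Leu-CAA (2.58%) in young male 1 and Thr-TGT (7.12%) in old male 1. The high share is therefore not particular to the glutamine tRNAs. Phe-GAA was close to the median, with 1.60% ± 0.258 (SD, n = 4) in young and 2.67% ± 1.11 (SD, n = 4) in old brains.

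In points, the difference between ages in this share was the largest of the 47 anticodons in Gln-TTG (7.50) and the second largest in Gln-CTG (6.43). Old female 1 weighed heavily in both differences. Without that brain they were 2.78 and 2.43 points, and 0.565 for the median anticodon. Old female 2 lay within the young range for Gln-CTG and Gln-TTG alike. The order in points favours anticodons with a high share in young brains, where Gln-TTG (4.57%) and Gln-CTG (4.36%) already led. Relative to the young share, Thr-AGT (from 1.95 to 5.28%), Thr-TGT and Gly-CCC (from 0.530 to 1.42%) rose slightly more than Gln-TTG (to 12.1%), and the other anticodons rose less. A large rise relative to the young share is therefore not a mark of the glutamine tRNAs alone. Reads ending in C alone went from 7.97 to 14.4% in Gln-CTG, from 6.93 to 12.9% in Gln-TTG, from 10.3 to 17.1% in Phe-GAA and from 6.21 to 12.5% in the median anticodon. Without old female 1 these differences were 3.52, 2.84, 2.87 and 2.94 points. Reads ending in CC, the uncharged form as defined above, showed a different picture. Their share of all reads was 22.4% against 21.4% in Gln-CTG, 19.2 against 17.5% in Gln-TTG and 32.8 against 32.9% in Phe-GAA, while the median anticodon had 31.2 against 36.9%. In the spike-in, reads with none of the 3 ends made up 3.90 to 5.14%, with means of 4.61% in young and 4.49% in old libraries. Its reads ending in C alone had a mean of 1.72% at both ages. What produced these ends was not tested.

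**Figure D3:**
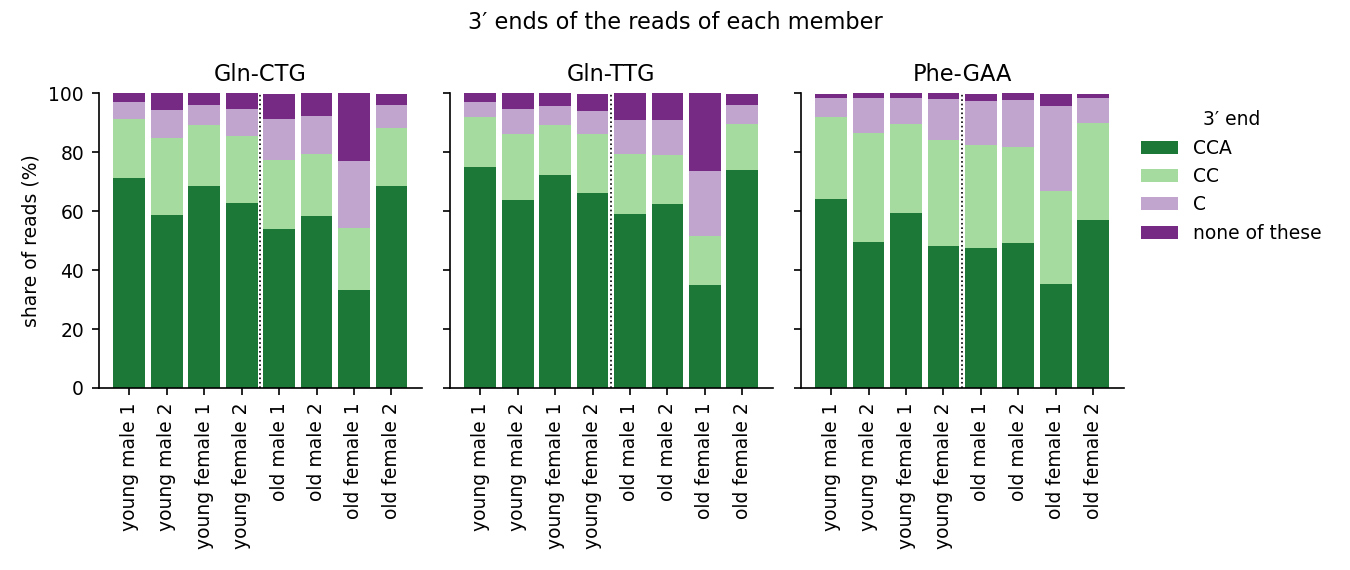
Stacked shares (%) of reads ending in CCA, CC, C or none of these for each of the 3 tRNAs in each of the 8 brains, young to the left of the dotted line. The last class reaches 22.8 and 26.2% in the glutamine tRNAs of old female 1 but only 4.26% in Phe-GAA.

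With all 4 classes of ends in the denominator, the glutamine tRNAs lost their place and Phe-GAA kept it. The CCA share of all Gln-CTG reads was 71.2, 58.6, 68.6 and 62.8% in young and 53.8, 58.4, 33.2 and 68.4% in old brains. That of Gln-TTG was 74.9, 63.7, 72.5 and 66.1% in young and 59.0, 62.4, 34.8 and 74.0% in old brains. In both, old male 1, old male 2 and old female 1 lay below every young brain, although Gln-CTG in old male 2 did so by only 0.198 points. The means differed by −11.8 points (65.3% ± 5.67 against 53.5% ± 14.8, SD, n = 4) and by −11.7 points (69.3% ± 5.24 against 57.6% ± 16.5, SD, n = 4), and that of the median anticodon by −14.1 points. Phe-GAA had 64.2, 49.5, 59.3 and 48.3% in young and 47.6, 49.1, 35.4 and 57.1% in old brains, a difference of −8.00 points (55.3% ± 7.68 against 47.3% ± 8.97, SD, n = 4).

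In log2 odds over all ends, Phe-GAA still had the second smallest difference of 47 anticodons (−0.47), after Thr-CGT, while Gln-CTG stood at place 14 and Gln-TTG at place 16 (both −0.72). The lead over the median anticodon, which had been 0.42, 0.50 and 0.44 in the difference between ages, was 0.12 in Gln-CTG, 0.12 in Gln-TTG and 0.36 in Phe-GAA. The loss of place rested in part on 1 brain. Without old female 1, Gln-CTG stood at place 5, Gln-TTG at place 2 and Phe-GAA at place 1, and the differences in the CCA share of all ends were −5.08, −4.17 and −4.03 points. Over all brains left out in turn, the places spanned 5 to 18 for Gln-CTG, 2 to 20 for Gln-TTG and 1 to 4 for Phe-GAA.

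**Figure D4:**
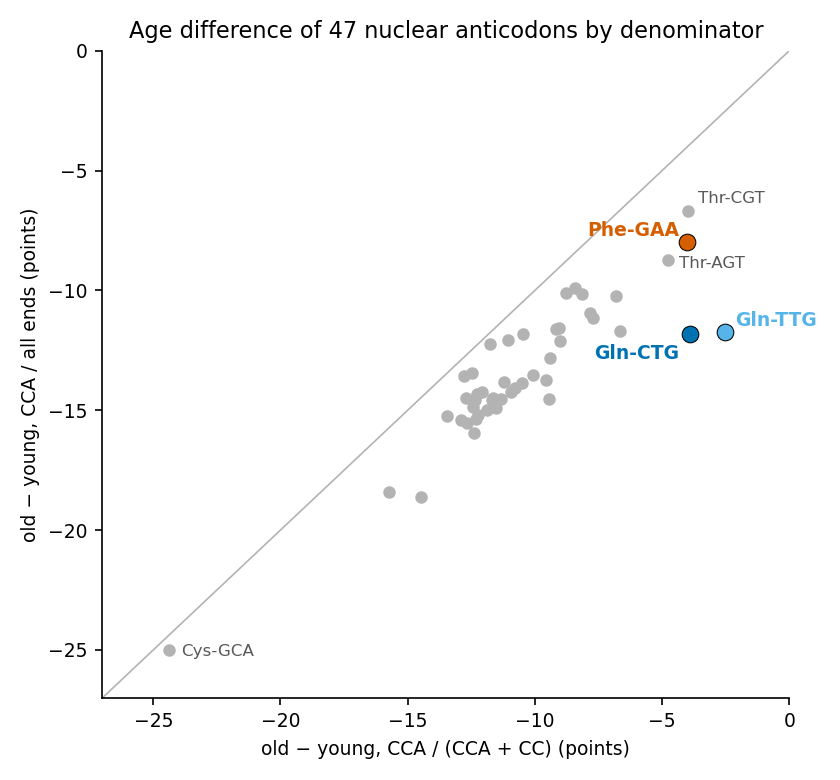
Difference between ages (old minus young, percentage points) of 47 nuclear anticodons, with CCA plus CC reads (horizontal axis) or reads of all ends (vertical axis) in the denominator and a grey line where both are equal. Phe-GAA stays at the upper right beside Thr-CGT (−8.00 and −6.69 points over all ends), whereas Gln-CTG (−11.8) and Gln-TTG (−11.7) drop to the height of other anticodons.

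Gln-CTG reads came from 2 transcripts, which shared the pattern of their anticodon. The more abundant, Gln-CTG-2, held between 68.6 and 75.2% of its reads. Gln-CTG-1 was charged higher in 8 of 8 brains, by 3.79 ± 1.23 points (SD, n = 8), and its mean went from 76.4 to 73.9%, against 73.5 to 69.1% in Gln-CTG-2. In old female 1, 24.9% of Gln-CTG-1 reads and 21.8% of Gln-CTG-2 reads had none of the 3 ends, so neither transcript alone held these reads. Gln-TTG and Phe-GAA were each represented by 1 transcript. A further phenylalanine tRNA, Phe-AAA with 1 gene, had 3 to 21 reads per brain and was not tested.

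The 3 tRNAs together were neither rare nor alike in abundance, which was not used to choose them. Phe-GAA was the most abundant nuclear anticodon in 6 of 8 brains. It made up 5.34, 4.69, 4.77 and 4.91% of nuclear tRNA reads in young and 5.43, 4.98, 6.03 and 5.15% in old brains. Gln-CTG made up 3.72, 3.97, 3.67 and 4.08% in young and 4.29, 3.84, 4.23 and 4.28% in old brains. Gln-TTG was rare, with 0.478, 0.529, 0.423 and 0.448% in young and 0.443, 0.560, 0.486 and 0.432% in old brains. The ages overlapped in each, but 3 of 4 old brains exceeded every young brain in Gln-CTG, 2 in Phe-GAA and 1 in Gln-TTG. Per gene copy, of which the reference has 6, 6 and 3, Phe-GAA had 0.822% of nuclear reads in young brains, Gln-CTG 0.643% and Gln-TTG 0.156%.

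None of the 3 passed an adjusted p of 0.05 in abundance by age (edgeR, quasi-likelihood test). The threshold was passed by 3 of all 47 anticodons (6.38%), and 9 were below 0.05 before adjustment. The log2 change with age was 0.13 in Phe-GAA (SE 0.06, edgeR adjusted p 0.256), 0.11 in Gln-CTG (SE 0.06, edgeR adjusted p 0.256) and 0.03 in Gln-TTG (SE 0.10, edgeR adjusted p 0.847). Phe-GAA was above the young mean in 4 of 4 old brains and Gln-CTG in 3 of 4. DESeq2 also called none of the 3. Among the transcripts, 6 of 66 (9.09%) were called and none belonged to the 3 tRNAs. Their lowest value was that of Gln-CTG-2 (log2 change 0.13, SE 0.05, edgeR unadjusted p 0.0197 and adjusted p 0.117). In whole brains, fewer cells of a type and less RNA per cell cannot be told apart, and shares of nuclear reads say nothing of the total amount of tRNA. The p-values measure the spread between these brains, by an estimate shared in part across anticodons or transcripts and not by each tRNA's own spread alone.

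**Figure D5:**
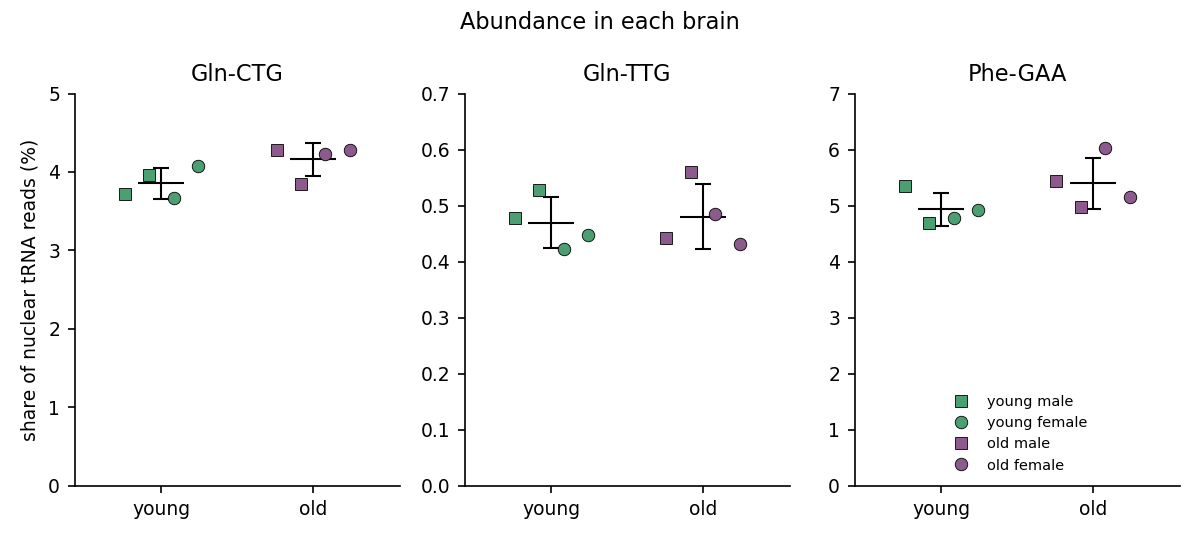
Share of nuclear tRNA reads (%) of each tRNA in each of 4 young and 4 old brains, on a separate axis from 0 for each tRNA, with squares for males, circles for females and bars for the mean ± SD. The means are 3.86 and 4.16% in Gln-CTG, 0.469 and 0.480% in Gln-TTG and 4.93 and 5.40% in Phe-GAA, and the ages overlap in each.

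Sex was the other contrast that the choice of these tRNAs did not use. With age in the fit, females and males differed by 0.04 in Gln-CTG, −0.17 in Gln-TTG and 0.03 in Phe-GAA (log2 change in abundance, female over male; SE 0.06, 0.10 and 0.07). The edgeR adjusted p-values were 0.841, 0.586 and 0.896. Gln-TTG had the lowest log2 change of the 47 anticodons, yet 0 anticodons (0%) passed in edgeR or DESeq2. In edgeR 1 other anticodon, Val-AAC, had an unadjusted p below 0.05. The charged share differed between the sexes by 0.00, 0.02 and −0.08 in log2 odds (SE 0.39, 0.36 and 0.40, edgeR adjusted p 0.997 each), and 0 of 47 anticodons (0%) passed in edgeR or limma, with 0 at an unadjusted p below 0.05 in edgeR. With 2 brains per age and sex, the charged share of Gln-CTG differed between ages by −2.11 points in males and −5.71 in females, that of Gln-TTG by −1.18 and −3.90, and that of Phe-GAA by −4.58 and −3.44. Whether the sexes differ in this was not tested.

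The likeness of other nuclear anticodons was measured by the root mean square difference over the 8 brains in log2 odds relative to the median anticodon, each anticodon's own mean removed. The nearest to Gln-CTG was Gln-TTG (0.060), followed by Leu-TAA (0.155) and Phe-GAA (0.171). Gln-TTG was followed after Gln-CTG by Phe-GAA (0.181) and Leu-TAA (0.185). The nearest to Phe-GAA was Tyr-GTA (0.130), a tRNA for another aromatic amino acid, before Gln-CTG (0.171) and Gln-TTG (0.181). The difference between ages that chose the 3 tRNAs is part of this measure, so nearness among them partly restates the choice. With each anticodon's mean within each age removed, Gln-CTG and Gln-TTG remained nearest to each other (0.043) and Tyr-GTA to Phe-GAA (0.072). Phe-GAA then stood 23rd of 46 from Gln-CTG (0.171) and 27th from Gln-TTG (0.178). Seen from Phe-GAA, at the same distances, Gln-CTG was 6th and Gln-TTG 7th. All points share the libraries and their depth.

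A list of 9 related tRNAs was also examined. It holds the glutamate and arginine tRNAs, whose synthetases share the need for bound tRNA, and the tRNAs of the other aromatic amino acids, tyrosine and tryptophan. Of the 9, 0 passed edgeR's test of the charged share by age (log2 changes from −0.94 to −0.47, median −0.76, edgeR adjusted p from 0.123 to 0.229), against 1 of 47 in all. Both counts hung on old female 2, without which 8 of the 9 and 38 of the 47 passed (median log2 change of the 9 −0.98). With any other brain left out, 0 of the 9 passed. With all brains, the edgeR unadjusted p-values of the 9 ran from 0.0157 (Arg-TCG) to 0.197 (Tyr-GTA). As above, the spread was pooled over anticodons that share the shift of their brain, so the 9 are not separate evidence. In abundance, 0 of the 9 passed (edgeR adjusted p from 0.0642 to 0.858). The smallest difference in charging was that of Tyr-GTA, from 58.4 to 50.5%, at place 8 of 47. Glu-TTC went from 55.8 to 45.7% (place 18), Glu-CTC from 54.1 to 41.9% (place 32), the arginine tRNAs held places 31 to 46 and Trp-CCA place 39. The glutamate and arginine tRNAs thus stood behind glutamine in this order, on which glutamine had been selected.

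Mitochondria carry their own tRNAs for both amino acids. Vertebrate mitochondrial tRNA-Gln is first charged with glutamate, which is then converted to glutamine on the tRNA, and mitochondrial tRNA-Phe has a separate single-chain synthetase. Mitochondrial Phe-GAA was charged to 60.5, 50.7, 59.3 and 51.3% in young and to 65.4, 59.5, 67.3 and 65.5% in old brains. The mean was 55.5% ± 5.14 against 64.4% ± 3.43 (SD, n = 4), 8.97 points higher in old brains, and 3 of 4 old brains exceeded every young brain. Its nuclear counterpart differed by −4.01 points in the same brains. Mitochondrial Gln-TTG had 67.6% ± 4.90 against 67.3% ± 4.94 (SD, n = 4), and 2.37 against 3.45% of its reads had none of the 3 ends, fewer than in nuclear Gln-TTG. Mitochondrial values are given without a test.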

How the data were processed

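RNA of 8 individual brains was purified by the authors under mildly acidic conditions, oxidized, β-eliminated, mixed with the spike-in and size-selected before the ligation of barcoded adapters and sequencing. Reads were trimmed by the authors with cutadapt 3.5, and alignment and counting were done in mim-tRNAseq, a package for reads with mismatches at modified bases. The deposited values are raw counts per anticodon, and per transcript or cluster and 3′ end, and another deposited column, of no unit among read measures, gives the tRNA genes per anticodon. Per-sample columns left unused: 0. Groups were taken from the labels. No sequence or coordinate was used, because the reference table at hand is of another assembly.

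Abundance was tested with edgeR 4.0.16 (R 4.3.3; quasi-likelihood, TMM, age or age and sex as factors) on nuclear anticodons or transcripts that reached 10 counts in 4 or more samples. Charging was tested on CCA and CC counts, with 1 effect per sample, where every sample had 100 such reads or more. P-values were adjusted by Benjamini-Hochberg over all features tested, and the SE is the absolute log2 change over the square root of F. Log2 odds used a pseudocount of 0.5. Descriptions were computed in Python 3.11.15. Both tests were run on simulated data with independent noise for each anticodon. Those data held no shift in charging shared by all anticodons of a brain. They therefore do not show how the charging test performs on these brains. Total reads per sample set the counting precision given above, which PCR copies may overstate, and spread between brains exceeded it.

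The tRNAs named are the members, their transcripts, other glutamine and phenylalanine tRNAs, the neighbours in the order of charging differences, the 3 most alike anticodons of each member and the related list. The spike-in, Pro-TGG and other tRNAs at the end of a range or next in an order were named after their values were seen. The members and lists were chosen with earlier results of these data known. Alternatives were DESeq2 1.42.0, limma 3.58.1, library size scaling, no filter, a minimum of 1000 reads, all end classes, an unweighted mean over transcripts, scaling to the CCA share of the spike-in, summed counts in place of the median anticodon, mitochondrial tRNAs in the fit, a sex factor, the replicate block and leaving out each brain.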

Additional observations from a re-analysis of the deposited data

Results flagged for a closer look

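In old brains, Gln-CTG made up 3.84% of the nuclear reads of old male 2, apart from the other 3 old brains, which lay between 4.23 and 4.29%. Its gap to the nearest of them exceeded Dixon's critical value for 4 samples. This was the 1 sample past that value in 36 groups of 4 brains examined, and chance alone gives about 1 in 20. Old female 1, described above as standing apart, did not exceed it in any of these groups.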

How the results depend on the processing

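The number of anticodons called in abundance by age was 3, and it was 6 with DESeq2, 16 (of 69) with mitochondrial tRNAs in the fit and 0 to 8 with 1 brain left out (8 without old female 2, 1 without young female 2 or old male 1, 2 without old female 1 and 0 without any 1 of the other 4). Transcripts called were 6, and 0 to 12 with 1 brain left out (12 without old female 2, 3 without old male 2, 2 without young female 2 and 0 without young female 1 or old male 1). Anticodons called by sex were 0, and 0 to 1 with 1 brain left out (1 without old female 2). Anticodons called in the charged share by age were 1, and 0 to 38 with 1 brain left out (38 without old female 2 and 0 without old male 1). With the replicate block the calls were 1 anticodon and 0 transcripts in abundance and 0 anticodons in charging by age. The numbers name different fish and do not pair the samples. The deviations of same-numbered brains of both ages from their age means correlated from −0.37 to 0.20 in abundance and from −0.28 to 0.79 in charging. In either measure, 2 of 8 brains correlated best with their own number at the other age. Deviations of same-numbered brains of both sexes correlated from −0.30 to 0.61 in abundance and from −0.78 to 0.82 in charging. These were taken from the sex means with age left in, so they cannot show whether the numbers pair samples. Compared by number alone, the charged share of all 3 tRNAs was lower in old male 1 and old female 1 than in the young brains of that sex and number. It was higher in old male 2 and old female 2. As the fish differ, this is no change within pairs. None of the 3 tRNAs was called in abundance under any alternative run (adjusted p from 0.131 to 0.461 in Gln-CTG, 0.556 to 0.997 in Gln-TTG and 0.131 to 0.440 in Phe-GAA).

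With all 4 end classes, the difference between ages was −11.8 points in Gln-CTG and −11.7 in Gln-TTG, and their gain on the median anticodon was 0.12 in both. Scaled to the spike-in, the differences in charged share were −5.11 in Gln-CTG, −3.89 in Gln-TTG and −4.99 points in Phe-GAA. Summed counts in place of the median anticodon gave gains of 0.35, 0.44 and 0.37. With 1 brain left out, the difference in charged share spanned −6.27 to −0.878 points in Gln-CTG, −4.79 to 0.192 in Gln-TTG and −5.81 to −1.61 in Phe-GAA (−1.61 without young male 1), and the gain spanned 0.37 to 0.47, 0.47 to 0.54 and 0.34 to 0.53. Added after seeing the data, the CCA share of all ends and the share with none of the 3 ends were also recomputed with each brain left out, and kept their direction in the 3 tRNAs. Small estimates changed sign with 1 brain left out. The change in abundance with age spanned −0.052 to 0.10 in Gln-TTG and −0.051 to 0.10 in its transcript, and the difference by sex in the abundance of Phe-GAA spanned −0.035 to 0.074. The difference by sex in the log2 odds of charging spanned −0.20 to 0.25 in Gln-CTG, −0.21 to 0.27 in Gln-TTG and −0.23 to 0.091 in Phe-GAA. With all end classes it was −0.13 in Gln-CTG and −0.16 in Gln-TTG. The cause was not tested.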
